A study of Homo sapiens with 4 samples.

Results

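Transcripts of 56 genes that encode repressors of transcription were measured in PANC-1, a human cell line from a pancreatic carcinoma, with and without knockdown of the deacetylase SIRT1. The genes were taken by symbol as the subunits of Polycomb repressive complexes 2 and 1 (PRC2 and PRC1), the zinc-dependent histone deacetylases (HDACs), the NuRD complex, 5 other corepressors and 5 enzymes that methylate lysine 9 of histone H3 (H3K9). All 56 were among the 16878 genes measured in each library. The comparison was between 2 Control libraries and 2 siSIRT1 libraries, made 48 h after transfection of a control or of small interfering RNA (siRNA) against SIRT1. Total RNA came from PANC-1 in all 4 libraries, and the transfected control is not described further. Neither the labels nor the methods say that the 2 libraries of a group came from separate cultures, so the p-values measure the spread between these libraries, which may be technical.

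Repressors of this kind work on chromatin. PRC2 methylates lysine 27 of histone H3, PRC1 attaches ubiquitin to lysine 119 of histone H2A, and PRC1 subunits of the CBX family bind the mark that PRC2 leaves. HDACs remove acetyl groups from histones, usually inside larger complexes such as NuRD, SIN3, NCOR and CoREST, and the H3K9 methyltransferases set the mark bound by heterochromatin protein 1. SIRT1 is an NAD-dependent deacetylase of another class, and the study asks how it acts with the ubiquitin ligase complex CRL4B, built on CUL4B. The question of the present comparison is which of their transcripts changed when SIRT1 was depleted.

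SIRT1 itself had FPKM values (fragments scaled by transcript length and by library total) of 10.46 and 10.25 in Control against 1.80 and 2.05 after transfection of its siRNA. The log2 fold change was -1.96 ± 0.11 (SE, n = 2 against 2) (limma adjusted p = 1.33e-05), and the groups matched their labels. The siRNA strand listed by the study is shown because its target site and its seed decide which transcripts it can pair with. It reads gugucaugguuCCUUUGCa, with the letters that pair with the guide's seed in capitals, and it occurs once in the SIRT1 transcript and in none of the 56 members, whose longest shared run with it was 10 bases. Depth was estimated at 8760000 to 9180000 fragments per library from the steps between low FPKM values. Over genes, Pearson's r of the log2 values was 0.995 within Control, 0.993 within siSIRT1 and 0.967 to 0.971 between the groups. The epithelial keratins KRT7, KRT8, KRT18 and KRT19 summed to 4189 and 3965 FPKM in Control against 5056 and 4667 FPKM after knockdown, and VIM was at 2198.36, 2048.59, 1503.48 and 1426.62 FPKM in the same order of libraries. Of these 5 PANC-1 markers 2 were called higher and 1, VIM, lower. Of 6 markers of other cell types, PECAM1, VWF, PRSS1 and CPA1 stayed below 1 FPKM, and the leukocyte gene PTPRC was at 0.97 to 1.29 FPKM. The 6 summed to 6.07 and 6.04 FPKM in Control against 20.6 and 21.3 FPKM after knockdown, nearly all of the increase in the collagen gene COL3A1, and without it the sums were 1.99, 2.00, 1.72 and 1.96 FPKM. The part of this shift in the results was not tested, and in bulk RNA fewer cells of a type and less RNA per cell cannot be told apart.

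After SIRT1 knockdown, 16 members were higher and 8 were lower at an adjusted p under 0.05. Of all 12191 genes tested, 24.0% were called higher and 13.1% lower, so the members' 28.6% and 14.3% lay near the background. Without overlap between the groups, 33 members were higher and 14 lower, where 43.8% and 25.2% of all tested genes were. The median log2 fold change of the members was 0.16, beside 0.07 for all tested genes, and the median absolute log2 fold change was 0.24, beside 0.21. The called rises ran from a ratio of 1.18 for MBD3 to 2.04 for CBX2, and the called falls from 0.85 for CHD3 to 0.68 for HDAC6, as ratios of FPKM + 1. Calls were recomputed under 11 alternatives, which changed the scaling between libraries, the filter, the pseudocount, the variance trend or the replicate block, or removed trends on length or GC content. The split of 16 higher and 8 lower became 11 and 10 under median-of-ratios scaling, where 16.6% of all tested genes were higher and 16.8% lower. Leaving out a Control library lowered the counts among the members and among all tested genes alike. Such a fit leaves 1 library in the group. No member fell below the filter of a mean of 1 FPKM. The members' mean level in Control ran from 2.02 FPKM for CBX2 to 77.6 FPKM for HDAC1, with a median of 13.4 FPKM.

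**Figure D1:**
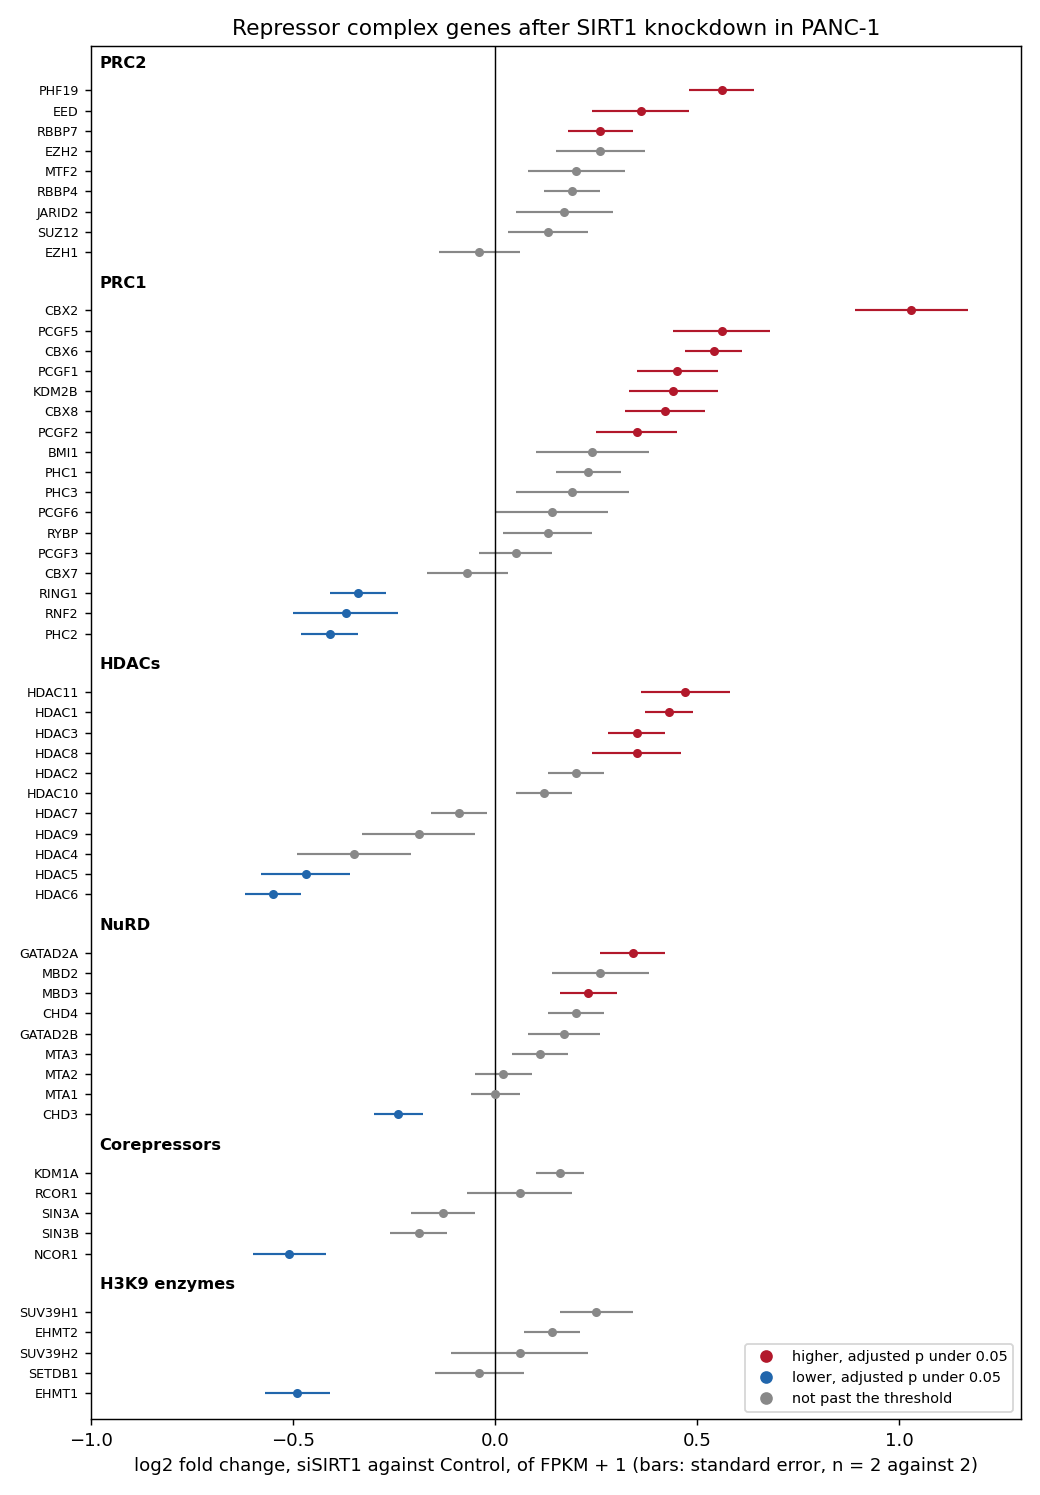
Log2 fold change of FPKM + 1 between siSIRT1 and Control (horizontal axis) for all 56 members, grouped by complex, with the standard error of 2 against 2 libraries as bars. Red marks the 16 members higher and blue the 8 lower at an adjusted p under 0.05. CBX2 lies farthest to the right at 1.03 and HDAC6 farthest to the left at -0.55.

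Of 9 PRC2 members, 3 were called higher and 0 lower (24.0% and 13.1% of all tested genes), and 8 had siSIRT1 values above both Control values (43.8% of all tested genes). The 3 were PHF19, EED and RBBP7. PHF19 is a Polycomb-like subunit that helps bring PRC2 to its targets. Its FPKM was 23.82 and 22.54 in Control against 36.39 and 32.76 in siSIRT1, with no overlap. The log2 fold change was 0.56 ± 0.08 (SE, n = 2 against 2; adjusted p = 0.000846), and it held under all 11 alternatives and without each library. EED binds trimethylated lysine 27 and stimulates the catalytic subunit. It was at 4.61 and 5.74 FPKM in Control against 6.88 and 6.93 FPKM after knockdown, a log2 fold change of 0.36 ± 0.12 (adjusted p = 0.0455). The call was lost in 8 of the 11 alternatives and without Control 1 (0.23), siSIRT1 1 (0.37) or siSIRT1 2 (0.36). RBBP7, a histone-binding protein shared with NuRD and SIN3, was at 31.45 and 31.98 FPKM in Control against 35.73 and 40.73 FPKM after knockdown. Its log2 fold change was 0.26 ± 0.08 (adjusted p = 0.0290). That call was also lost in 8 of the 11, and without Control 1 (0.25), Control 2 (0.27) or siSIRT1 2 (0.17). RBBP4, the close relative of RBBP7, was not called, at 20.70 and 22.21 FPKM in Control against 24.17 and 24.87 FPKM after knockdown (log2 fold change 0.19 ± 0.07, adjusted p = 0.0787).

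The methyltransferase EZH2, named here after its values were seen, was at 11.24 and 10.61 FPKM in Control against 12.00 and 14.58 FPKM after knockdown. Its log2 fold change was 0.26 ± 0.11 (adjusted p = 0.0918), and without siSIRT1 1 it was 0.39 (adjusted p = 0.0221), without siSIRT1 2 it was 0.13 (adjusted p = 0.324). The siSIRT1 libraries lay apart from each other and both above Control. The other 4 members (EZH1, SUZ12, JARID2 and MTF2) were not called. EZH1, the alternative methyltransferase, had the one negative log2 fold change of these 9, at -0.04. The 9 do not include every protein found with PRC2, and the count in each direction depends on that choice. PHF1 and AEBP2, listed below with the Polycomb partners, both had -0.35 without overlap. PHF1 was called lower (adjusted p = 0.00663) and AEBP2 was not called (adjusted p = 0.0554). That list of 17 tested genes had 9 positive and 8 negative log2 fold changes.

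Promoters of all members and of the other genes were searched for letters bound by E2F factors, which drive cell cycle genes. The RefSeq windows of GRCh38.p14 hold 300 bases around a transcription start, most of them upstream. A window was found for 53 of the 56 members, but not for CBX2, CBX8 and HDAC5. TTTCCCGC or TTTGGCGC stood on either strand in 5 of the 53 (9.43%), beside 458 of 9984 tested genes with a window (4.59%) and 2.27% of all windows. The 5 were EZH2, SUZ12, PHF19 and MTF2 of PRC2, and SIN3A. Among members called higher it was 1 of 14, and among members called lower 0 of 7. PHF19, the PRC2 gene with the largest change, and its relative MTF2 are shown with these letters in capitals, both read on the strand of the gene.
PHF19, chr9:120877139-120877438, minus strand: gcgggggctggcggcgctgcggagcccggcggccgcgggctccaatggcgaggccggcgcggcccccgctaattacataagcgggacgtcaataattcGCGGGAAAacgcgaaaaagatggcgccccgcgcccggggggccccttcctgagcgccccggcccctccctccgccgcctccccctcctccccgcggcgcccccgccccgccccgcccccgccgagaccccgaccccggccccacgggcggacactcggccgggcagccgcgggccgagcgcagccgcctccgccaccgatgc
MTF2, chr1:93079033-93079332, plus strand: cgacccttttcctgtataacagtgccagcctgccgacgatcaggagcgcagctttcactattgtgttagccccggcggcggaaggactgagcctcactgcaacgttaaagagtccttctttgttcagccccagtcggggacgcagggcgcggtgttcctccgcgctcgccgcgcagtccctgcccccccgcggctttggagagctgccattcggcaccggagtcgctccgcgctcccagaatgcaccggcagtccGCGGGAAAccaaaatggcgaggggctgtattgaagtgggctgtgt
In both windows the capitals are TTTCCCGC read on the opposite strand. They begin at base 99 of the PHF19 window and base 256 of the MTF2 window. MTF2 was not called (log2 fold change 0.20, adjusted p = 0.218). The CCAAT box (CCAAT, either strand) stood in 24 of the 53 members (45.3%) beside 43.1% of tested genes, and the E-box CACGTG in 8 (15.1%) beside 12.7%.

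PRC1, the largest of the groups, held the largest rise of the 56 and the largest number of calls. Of its 17 members, 7 were called higher (41.2%) and 3 lower (17.6%), beside 24.0% and 13.1% of all tested genes. The falls included both ubiquitin ligases. RING1 was at 29.62 and 29.57 FPKM in Control against 23.79 and 22.64 FPKM after knockdown, with a log2 fold change of -0.34 ± 0.07 (adjusted p = 0.00541). RNF2, its paralog, was at 4.46 and 4.34 FPKM in Control against 2.86 and 3.50 FPKM after knockdown, with a log2 fold change of -0.37 ± 0.13 (adjusted p = 0.0477). Neither overlapped between groups. RNF2 was called in 9 of the 11 alternatives and RING1 in all 11, yet both calls were lost without Control 1 and without Control 2. The RNF2 call was also lost without siSIRT1 1 (-0.26). The ratio of RING1 to RNF2 was 6.64 and 6.81 in Control against 8.32 and 6.47 in siSIRT1, so the ratios overlapped.

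PCGF proteins pair with the ligases and give each PRC1 its identity. All 6 had positive log2 fold changes, though that of PCGF3 was -0.03 under median-of-ratios scaling, and 3 were called. PCGF5, the PCGF subunit of one variant PRC1, was at 2.18 and 2.49 FPKM in Control against 3.81 and 4.02 FPKM after knockdown, and its log2 fold change was 0.56 ± 0.12 (adjusted p = 0.00815). PCGF1 was at 13.62 and 12.97 FPKM in Control against 16.81 and 20.32 FPKM after knockdown (0.45 ± 0.10, adjusted p = 0.00856). It forms the variant PRC1 that KDM2B, a protein that binds unmethylated CpG islands, brings to DNA. KDM2B was at 4.80 and 5.08 FPKM in Control against 7.16 and 6.92 FPKM after knockdown (0.44 ± 0.11, adjusted p = 0.0118). PCGF2, a subunit of canonical PRC1, was at 20.46 and 24.05 FPKM in Control against 30.59 and 26.76 FPKM after knockdown (0.35 ± 0.10, adjusted p = 0.0212). In none of these 4 genes did the groups overlap. The call of PCGF2 was lost in 8 of the 11 alternatives and without Control 1 (0.24) or siSIRT1 1 (0.26). That of PCGF1 was lost in 3 of the 11. Those of PCGF5 and KDM2B held in all 11 but were lost without Control 1, and that of KDM2B also without Control 2. BMI1, the other canonical PCGF protein, was not called (0.24, adjusted p = 0.219). It shares exons with the readthrough gene COMMD3-BMI1, which was at 2.91 ± 0.375 FPKM in Control against 4.19 ± 1.15 FPKM after knockdown (SD, n = 2) and not called, so the value of BMI1 is uncertain.

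CBX proteins of canonical PRC1 read methylated lysine 27. CBX2 was at 1.91 and 2.13 FPKM in Control against 4.63 and 5.73 FPKM after knockdown. The mean rose from 2.02 ± 0.156 to 5.18 ± 0.778 FPKM (SD, n = 2), or to 256% of Control, and the groups lay far apart. On the scale of log2(FPKM + 1) the change was 1.03 ± 0.14 (SE; 95% confidence interval 0.72 to 1.34, adjusted p = 0.000666), and it ran from 0.94 to 1.31 over the 11 alternatives. From the estimated depth, these values rest on about 78 and 89 fragments in Control against 184 and 236 in siSIRT1. CBX8 lies next to CBX2, 4.15 kb further along chromosome 17 in GRCh37, and read 5.40 and 5.49 FPKM in Control against 7.45 and 7.84 FPKM after knockdown (0.42 ± 0.10, adjusted p = 0.0119), a call lost without either Control library. CBX6 was the most abundant of the 4, at 46.78 and 45.08 FPKM in Control against 64.30 and 70.24 FPKM after knockdown (0.54 ± 0.07, adjusted p = 0.000490). Its change held in every alternative and without each library. CBX7 went from 7.71 and 7.97 FPKM to 7.62 and 7.23 FPKM and was not called (adjusted p = 0.617).

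Summed over these 4 CBX genes, FPKM was 61.8 and 60.7 in Control against 84.0 and 91.0 in siSIRT1. The share of CBX2 in this sum was 3.09% and 3.51% in Control against 5.51% and 6.29% in siSIRT1. CBX7 had 12.5% and 13.1% in Control against 9.07% and 7.94% in siSIRT1. CBX6 supplied 74.3% to 77.2% in every library, and the share of CBX8 overlapped between groups.

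PHC proteins link PRC1 particles through a domain that forms chains. PHC2, the most abundant PRC1 transcript in Control, was at 67.48 FPKM in each Control library against 53.03 and 48.03 FPKM after knockdown. Its log2 fold change was -0.41 ± 0.07 (adjusted p = 0.00185) and held in all 11 alternatives and without each library. PHC1 moved from 16.02 and 14.98 FPKM to 17.75 and 18.82 FPKM, without overlap, and was not called (adjusted p = 0.0568). The remaining PRC1 members that were not called (PCGF3, PCGF6, PHC3 and RYBP) had log2 fold changes of 0.05 to 0.19.

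**Figure D2:**
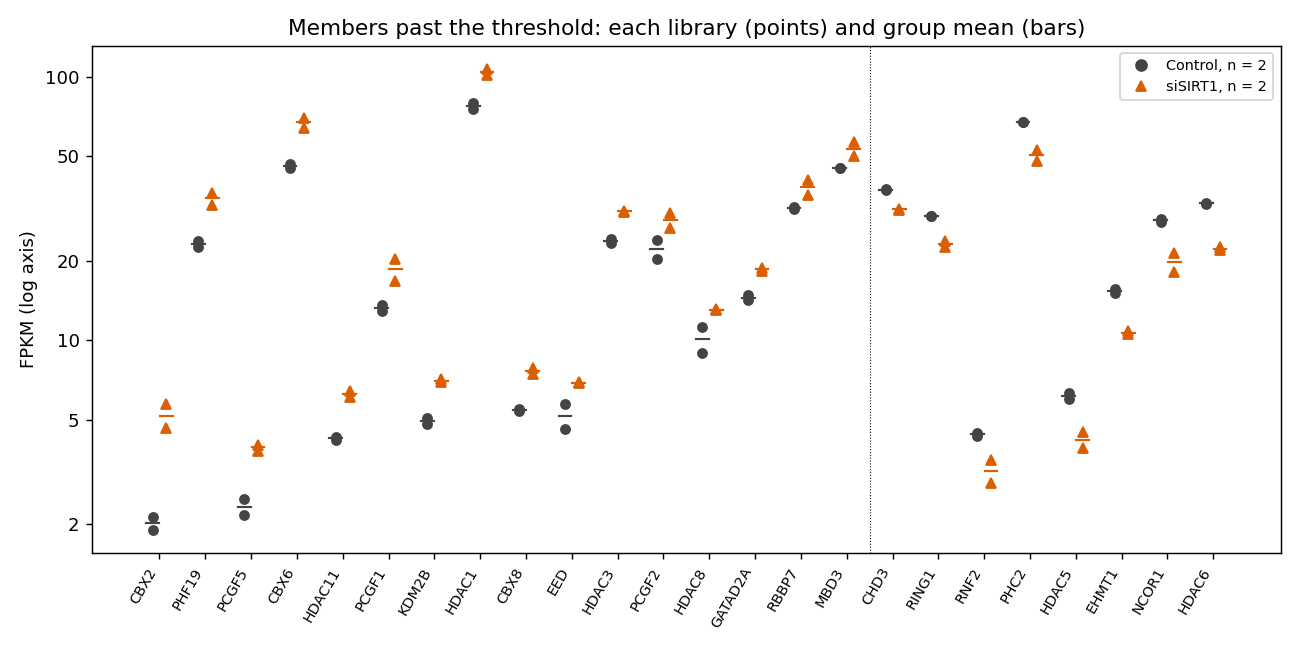
FPKM on a log axis for the 24 members past the threshold, with each Control library as a circle, each siSIRT1 library as a triangle and the group mean as a bar (n = 2 per group). In all 24 the siSIRT1 values lie on one side of the Control values, and the dotted line separates the 16 higher members from the 8 lower ones.

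Of 11 HDACs, 4 were called higher and 2 lower, beside 24.0% and 13.1% of all tested genes. Without overlap, 6 were higher and 5 lower, beside 43.8% and 25.2%. All 4 nuclear class I enzymes (HDAC1, HDAC2, HDAC3 and HDAC8) had positive log2 fold changes and 3 were called, whereas all 4 class IIa enzymes (HDAC4, HDAC5, HDAC7 and HDAC9), which shuttle between nucleus and cytoplasm, had negative ones and 1 was called. These signs stayed the same in all 11 alternatives. The difference between the classes was not tested. HDAC1, the catalytic subunit of NuRD, SIN3 and CoREST together with HDAC2, was at 75.42 and 79.75 FPKM in Control against 107.42 and 101.93 FPKM after knockdown. Its log2 fold change was 0.43 ± 0.06 (adjusted p = 0.00102) and held in every alternative and without each library. HDAC2 was at 21.82 and 21.36 FPKM in Control against 24.62 and 25.21 FPKM after knockdown (0.20 ± 0.07, adjusted p = 0.0530), just outside the threshold. The HDAC1 to HDAC2 ratio was 3.46 and 3.73 in Control against 4.36 and 4.04 in siSIRT1. HDAC3, the enzyme of the NCOR complexes, was at 23.52 and 24.33 FPKM in Control against 31.10 and 30.64 FPKM after knockdown (0.35 ± 0.07, adjusted p = 0.00391). This change also held in every alternative and without each library. HDAC8 was at 8.99 and 11.27 FPKM in Control against 13.17 and 12.99 FPKM after knockdown (0.35 ± 0.11, adjusted p = 0.0386). Its call was lost in 9 of the 11 alternatives and without Control 1 (0.20), siSIRT1 1 (0.34) or siSIRT1 2 (0.36).

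Outside class I, HDAC6 fell most. This cytoplasmic class IIb enzyme deacetylates tubulin, and it was at 33.06 and 33.35 FPKM in Control against 22.09 and 22.58 FPKM after knockdown. Its mean of 22.3 ± 0.346 FPKM was 67.3% of the Control mean of 33.2 ± 0.205 FPKM (SD, n = 2), and the log2 fold change was -0.55 ± 0.07 (adjusted p = 0.000433). In Control, HDAC1 exceeded HDAC6 by ratios of 2.28 and 2.39, and in siSIRT1 by 4.86 and 4.51. HDAC5 was at 6.01 and 6.33 FPKM in Control against 4.47 and 3.91 FPKM after knockdown (-0.47 ± 0.11, adjusted p = 0.0128). Its call was lost without either Control library. HDAC4 was not called at -0.35 (adjusted p = 0.0725), though it was in 5 of the 11 alternatives, and HDAC7 and HDAC9 were at -0.09 and -0.19. HDAC11, the single class IV enzyme, was at 4.31 and 4.18 FPKM in Control against 6.07 and 6.45 FPKM after knockdown (0.47 ± 0.11, adjusted p = 0.0100). That call too was lost without either Control library. HDAC10, the other class IIb enzyme, was not called (0.12, adjusted p = 0.248).

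NuRD joins deacetylation with nucleosome remodeling. Of its 9 members, 2 were called higher and 1 lower (22.2% and 11.1%), near the 24.0% and 13.1% of all tested genes. GATAD2A, which bridges the remodeler to the rest of the complex, was at 14.86 and 14.20 FPKM in Control against 18.86 and 18.36 FPKM after knockdown (0.34 ± 0.08, adjusted p = 0.00953), a call lost without Control 2. MBD3, a subunit with a methyl-CpG-binding domain, was at 45.25 and 45.20 FPKM in Control against 56.78 and 50.22 FPKM after knockdown (0.23 ± 0.07, adjusted p = 0.0335). The MBD3 call was lost in 7 of the 11 alternatives and without Control 1 (0.24), Control 2 (0.23) or siSIRT1 1 (0.15). CHD3, one of the remodeling ATPases, was at 37.44 and 37.27 FPKM in Control against 31.29 and 31.64 FPKM after knockdown (-0.24 ± 0.06, adjusted p = 0.0168). The call was lost without the mean-variance trend and without either Control library. Its paralog CHD4 was not called (0.20, adjusted p = 0.0637). CHD3 was above CHD4 in Control, by ratios of 1.28 and 1.21, and below it in siSIRT1, at 0.946 and 0.878.

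The MTA subunits, which hold HDAC1 and HDAC2, were not called. MTA1 was at 41.68 and 40.02 FPKM in Control against 41.79 and 39.95 FPKM after knockdown, with a 95% confidence interval of the log2 fold change from -0.15 to 0.15 (adjusted p = 0.994). MTA2 was at 58.29 and 58.38 FPKM in Control against 62.18 and 56.00 FPKM after knockdown, with an interval from -0.14 to 0.17 (adjusted p = 0.874). Both overlapped between groups, and the sign of each, near 0 as deposited, turned negative under every scaling and correction tried. The other 4 (MTA3, MBD2, GATAD2B and CHD4) had log2 fold changes of 0.11 to 0.26, without overlap and without a call. The proteins MTA1, MTA2, HDAC1, HDAC2, RBBP4, RBBP7, MBD3 and EED were of interest to the study as partners of SIRT1. Of these 8 transcripts, 4 were called higher (HDAC1, RBBP7, MBD3 and EED) and 0 lower, beside 24.0% and 13.1% of all tested genes, and HDAC1 alone of them kept its call under all 11 alternatives.

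Of the 5 other corepressors, NCOR1 alone was called, beside 24.0% of all tested genes called higher and 13.1% lower. NCOR1, the scaffold that brings HDAC3 to nuclear receptors, was at 28.08 and 29.04 FPKM in Control against 18.26 and 21.43 FPKM after knockdown. The mean was 69.5% of Control, and the log2 fold change was -0.51 ± 0.09 (adjusted p = 0.00242), past the threshold in all 11 alternatives and without each library. Several NCOR1 pseudogenes are annotated, and how shared reads were assigned is not stated. SIN3A and SIN3B, the scaffolds of the SIN3 complexes, were lower without overlap and not called, at -0.13 (adjusted p = 0.238) and -0.19 (adjusted p = 0.0674). SIN3B was called lower in 8 of the 11 alternatives, with an adjusted p of 0.0199 under median-of-ratios scaling. KDM1A, the H3K4 demethylase of CoREST, and its partner RCOR1 were not called, at 0.16 and 0.06.

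Of the 5 H3K9 methyltransferases, EHMT1 alone was called, beside 24.0% of all tested genes called higher and 13.1% lower. EHMT1 works as a pair with EHMT2 in setting mono- and dimethylation. It was at 15.10 and 15.68 FPKM in Control against 10.83 and 10.55 FPKM after knockdown, 69.5% of Control, with a log2 fold change of -0.49 ± 0.08 (adjusted p = 0.00230) that held in all 11 alternatives and without each library. EHMT2 was not called (0.14, adjusted p = 0.142), and the EHMT1 to EHMT2 ratio went from 0.605 and 0.638 to 0.393 and 0.389. SUV39H1, which sets trimethylation in heterochromatin, was just outside the threshold at 9.84 and 10.44 FPKM in Control against 12.52 and 12.01 FPKM after knockdown (0.25 ± 0.09, adjusted p = 0.0533). SUV39H2 and SETDB1 overlapped between groups, with adjusted p of 0.820 and 0.794.

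Within a library, the ratio of related genes does not depend on the scaling between libraries. Of 17 such pairs, chosen after their values were seen, 8 ratios were higher in both siSIRT1 libraries, 4 were lower and 5 overlapped. As single genes, 43.8% of all tested genes were higher and 25.2% lower without overlap, and no such share was computed for ratios. Some of the shifts were small. The mean ratio of SIN3A to SIN3B in siSIRT1 was 1.04 times that in Control, and that of MBD3 to MBD2 was 0.944 times. The largest shift was that of CBX2 to CBX7, from 0.248 and 0.267 in Control to 0.608 and 0.793 in siSIRT1. PHC2 to PHC1 went from 4.21 and 4.50 to 2.99 and 2.55. EZH2 to EZH1 went from 1.80 and 1.62 to 1.99 and 2.31. These ratios are given as descriptions, without a test.

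**Figure D3:**
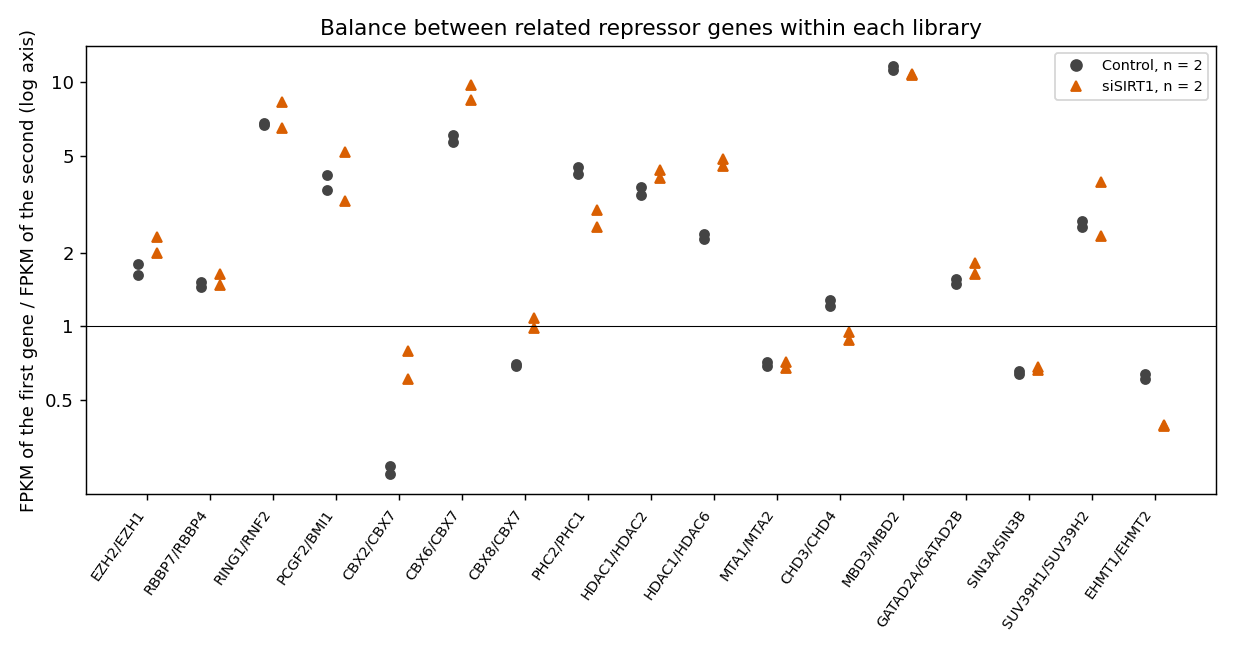
Ratio of the FPKM of 2 related members within each library, on a log axis, for 17 pairs (circles, Control; triangles, siSIRT1; n = 2 per group). The ratios of CBX2, CBX6 and CBX8 to CBX7 and of HDAC1 to HDAC6 lie higher in siSIRT1, those of PHC2 to PHC1, CHD3 to CHD4 and EHMT1 to EHMT2 lie lower, and MTA1 to MTA2 overlaps.

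Partners of these complexes were taken from lists of the pathway. Of 17 tested Polycomb partners and opponents, 2 were called higher and 1 lower (11.8% and 5.88%), beside 24.0% and 13.1% of all tested genes. USP7, a deubiquitinase found with PRC1, went from 22.93 and 24.66 FPKM to 28.78 and 30.46 FPKM (0.30 ± 0.07, adjusted p = 0.0116), and BCORL1 from 28.23 and 28.61 FPKM to 34.27 and 33.38 FPKM (0.24 ± 0.06, adjusted p = 0.0182). PHF1, the third Polycomb-like gene beside PHF19 and MTF2, went the other way from PHF19, from 21.54 and 22.13 FPKM to 17.37 and 16.36 FPKM (-0.35 ± 0.08, adjusted p = 0.00663). The H3K27 demethylases KDM6A and KDM6B were not called.

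Of 21 SIN3, NCOR and CoREST partners, 4 were called higher and 2 lower (19.0% and 9.52%), beside 24.0% and 13.1% of all tested genes. CDK2AP1 was counted in this list, although it is found in NuRD and was not among the NuRD members above. It was at 43.25 and 41.74 FPKM in Control against 74.99 and 70.11 FPKM after knockdown (0.76 ± 0.06, adjusted p = 7.67e-05). SAP18, a SIN3-associated protein, was at 25.06 and 25.14 FPKM in Control against 36.24 and 30.07 FPKM after knockdown (0.38 ± 0.09, adjusted p = 0.0111). ZNF217, a zinc finger protein found with CoREST, was at 44.71 and 48.33 FPKM in Control against 22.68 and 29.23 FPKM after knockdown (-0.83 ± 0.11, adjusted p = 0.000673). HMG20B, a partner of CoREST, was at 120.90 and 115.51 FPKM in Control against 95.51 and 86.27 FPKM after knockdown (-0.38 ± 0.07, adjusted p = 0.00296).

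Of 19 readers, erasers and DNA methylation factors linked to H3K9, 5 were called higher and 2 lower (26.3% and 10.5%). Of all tested genes, 24.0% and 13.1% were. The 3 heterochromatin protein 1 genes, looked at together after their values were seen, did not share a direction. CBX5 was at 26.34 and 27.40 FPKM in Control against 16.93 and 19.75 FPKM after knockdown (-0.53 ± 0.09, adjusted p = 0.00194), CBX1 had a log2 fold change of 0.30 (adjusted p = 0.00444), and CBX3 was not called. The H3K9 demethylase KDM4A was at 21.16 and 20.19 FPKM in Control against 17.17 and 17.38 FPKM after knockdown (-0.25 ± 0.07, adjusted p = 0.0306). DNMT3B, a de novo DNA methyltransferase, was at 2.66 and 2.51 FPKM in Control against 3.73 and 3.68 FPKM after knockdown (0.39 ± 0.12, adjusted p = 0.0319). UHRF1, which directs DNMT1 to newly replicated DNA, was at 21.39 and 22.67 FPKM in Control against 28.17 and 27.26 FPKM after knockdown (0.32 ± 0.07, adjusted p = 0.00833). TRIM28, the corepressor that brings SETDB1 to DNA, was at 228.75 and 232.38 FPKM in Control against 270.30 and 254.58 FPKM after knockdown (0.19 ± 0.06, adjusted p = 0.0392). Of SIRT1 and 4 genes of the CUL4 ligases, 1 was called higher, RBX1, and 1 lower, SIRT1. CUL4B was at 26.94 and 28.85 FPKM in Control against 25.35 and 31.49 FPKM after knockdown and was not called (adjusted p = 0.903), nor were DDB1 and CUL4A. RBX1, the RING subunit of the ligase, was at 18.41 and 16.49 FPKM in Control against 26.11 and 21.76 FPKM after knockdown (0.43 ± 0.10, adjusted p = 0.0102).

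HOX genes are textbook targets of Polycomb repression. Of 35 in the tables, 14 were below the filter, and of 21 tested, 8 were called higher and 6 lower (38.1% and 28.6%), beside 24.0% and 13.1% of all tested genes. Their median log2 fold change was 0.03 and the median absolute value 0.45, beside 0.07 and 0.21. HOXB13 was at 2.39 and 2.10 FPKM in Control against 4.05 and 3.62 FPKM after knockdown (0.58 ± 0.13, adjusted p = 0.00815), and HOXB9 at 25.54 and 26.38 FPKM in Control against 39.54 and 37.33 FPKM after knockdown (0.55 ± 0.07, adjusted p = 0.000482). HOXC4 was at 20.44 and 20.31 FPKM in Control against 12.19 and 10.53 FPKM after knockdown (-0.79 ± 0.09, adjusted p = 0.000331), and HOXC5 at 6.20 and 8.06 FPKM in Control against 4.16 and 4.26 FPKM after knockdown (-0.63 ± 0.13, adjusted p = 0.00630). HOXC5 lies within the span of HOXC4 on the same strand, so these falls may share reads and are not independent. HOXB9 likewise lies within the span of HOXB7 on the same strand, so its value may hold shared reads too. HOXB7 was not called (log2 fold change 0.03, adjusted p = 0.826). The 7 HOXD genes in the tables were all below the filter.

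The seed of the siRNA guide pairs with CCTTTGC, and 18 of the 56 members (32.1%) hold these letters in their 3′ UTR, beside 15.6% of 11930 tested genes. The members' 3′ UTRs were longer, with a median of 1797 bases beside 1305. Of the 8 members called lower 4 had the letters (PHC2, HDAC5, HDAC6 and CHD3), as did 3 of the 16 called higher (PCGF2, KDM2B and MBD3) and 11 of the 32 not called. Over all tested genes, 13.5% of those with the letters and 13.0% of those without were called lower, and 21.2% and 24.9% higher. The median 3′ UTR length of these genes was 2974 and 1088 bases. The sites of the 4 lower members are shown with 8 bases on each side, on the strand of the transcript, and the GRCh37 coordinates are those of the capitals.
PHC2, chr1:33789350-33789356: tgccgtgtCCTTTGCaggaagga
HDAC5, chr17:42154682-42154688: ctgggctcCCTTTGCtgaccacc
HDAC6, chrX:48683138-48683144: ctgaatatCCTTTGCaactcccc
CHD3, chr17:7815028-7815034: taggaaccCCTTTGCccctctct
A match of this kind is a description of the letters and not a site of action. Whether the siRNA acts on these transcripts was not tested, and a single siRNA sequence is listed for SIRT1.

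Calls differed in how far they held. Of the 24, 16 were past the threshold under all 11 alternatives, 10 higher and 6 lower. Of these 16, 9 also held without each library in turn, and they were PHF19, CBX2, CBX6, HDAC1 and HDAC3, higher, and PHC2, HDAC6, NCOR1 and EHMT1, lower. EED, RBBP7, PCGF1, PCGF2, HDAC8 and MBD3, all higher, were lost under at least 1 of 5 scalings and corrections, whereas all 8 lower members kept their call under these 5. All tested genes shifted the same way. Under these 5 settings 16.6% to 18.9% of them were called higher and 15.1% to 19.5% lower, beside 24.0% and 13.1% in the main fit. The difference is thus not particular to the members. Without Control 1, 13 calls were lost, with adjusted p from 0.0519 to 0.345, and without Control 2, 10 were lost, from 0.0511 to 0.163. Without siSIRT1 1, 5 calls were lost (EED, RNF2, PCGF2, HDAC8 and MBD3), and without siSIRT1 2, 3 were lost (EED, RBBP7 and HDAC8). No called member changed direction in any of these fits. In turn, 9 of the 32 members not called were called under at least 1 of the 11 alternatives. They were SIN3B in 8, HDAC4 in 5, HDAC2 and CHD4 in 3 each, and EZH2, RBBP4, PHC1, SUV39H1 and SIN3A in 1 each.

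**Figure D4:**
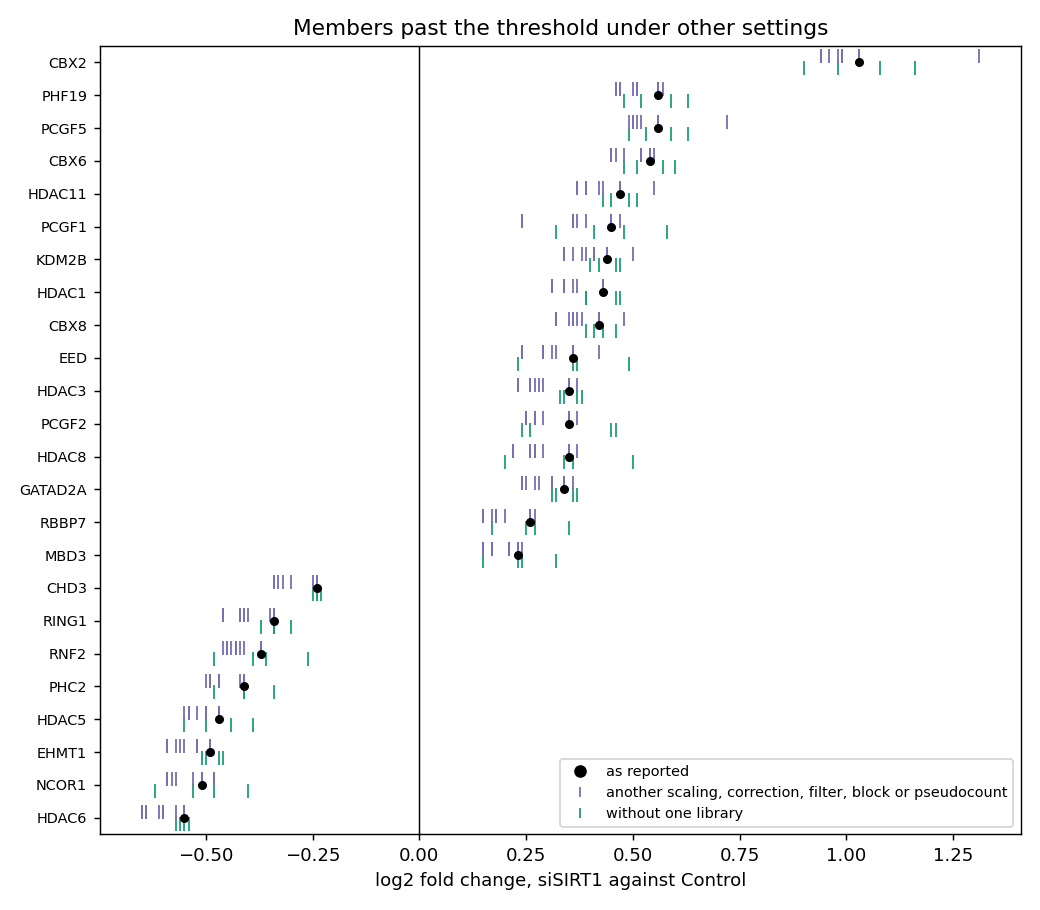
Log2 fold change between siSIRT1 and Control (horizontal axis) for the 24 members past the threshold as reported (black points), under 11 other settings (violet marks) and without each library in turn (green marks). Every mark stays on the side of 0 where its point lies, and CBX2 has the widest range over the settings, from 0.94 to 1.31.

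Sequence shared with other genes limits some values. Named pseudogenes are annotated for 10 members, 4 of them called (EED, RNF2, HDAC1 and NCOR1), and 14 members overlap another gene of the tables, 6 of them called (RBBP7, PCGF2, KDM2B, HDAC5, CHD3 and NCOR1). Whether the counting used strand is not stated, so reads of overlapping genes cannot be told apart and these values are uncertain.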

How the data were processed

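RNA-seq of PANC-1 cells gave 1 table of FPKM values per library, deposited by the authors with 2 decimals. FPKM divides the fragments of a gene by transcript length and by the total of the library, so abundant genes that change can shift all others, and no scaling between libraries is stated. The submitters' processing notes name Bowtie2, HISAT and RSEM with no version, and ChIPseeker, a tool for binding sites that has no part in these values. Which step the first 3 served for the RNA-seq, the genome build and the annotation are not given in the sources used here. Libraries were grouped by their titles, 2 per group.

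Values were fitted with limma 3.58.1 (R 4.3.3, with the mean-variance trend in eBayes and no block) as log2(FPKM + 1), for the 12191 genes that averaged 1 FPKM or more. Tests were two-sided, with Benjamini-Hochberg adjustment over these genes and a threshold of 0.05. The pseudocount of 1 understates changes of low genes. An exact permutation test of 2 against 2 libraries cannot give a p below 0.333, so none is reported. Symbols came from a RefSeq gene table, which matched 16846 of the 16878 identifiers, and coordinates, lengths, GC content and 3′ UTRs from GENCODE release 44 mapped to GRCh37. The fit and the estimate of depth were tested on simulated data, and intervals and depth cover counting error or library spread only.

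The members and gene lists were chosen with earlier results of these data known. Values in every library are given for members past the threshold and for the 8 members of interest to the study as SIRT1 partners. Partner and HOX lists are given by counts, with the 2 largest called rises and falls of each. Alternatives were a pseudocount of 0.1, no filter, quantile, median-of-ratios and equal-sum scaling, length and GC corrections (lowess span 0.3, with and without a replicate block), a replicate block, no trend, the study's thresholds and leaving out each library. The difference between libraries 1 and 2 in Control correlated at 0.123, over the tested genes, with that in siSIRT1. With 2 libraries per group this cannot decide whether the numbers pair the libraries. No pairing is known, and the main fit used no block. CD3E, ALB and INS were not analysed here. Scripts used Python 3.11.15 with numpy 2.4.6, pandas 2.3.3 and scipy 1.17.1.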

Additional observations from a re-analysis of the deposited data

How the results depend on the processing

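Of the 16 members higher and 8 lower, the counts were 10 and 7 without a filter on low values. More genes were tested there, and 13.7% of them were higher and 7.76% lower. With the thresholds of the study (fold over 1.2, here with unadjusted p under 0.001) the members' counts were 5 and 5. The share of all tested genes at these thresholds is not given here. Leaving out 1 library gave 7 to 16 higher and 4 to 10 lower members, with the fewest without Control 1 and without Control 2. Among all tested genes, too, the fewest were called without Control 1 and without Control 2, so the drop is not particular to the members. Each fit without a library leaves 1 library in that group. With the replicate block 22 members were higher and 9 lower, where 28.6% of all tested genes were higher and 15.7% lower. The block added calls for CHD4, HDAC2, PHC1, SUV39H1, RBBP4 and EZH2, higher, and SIN3B, lower (adjusted p from 0.0229 to 0.0494), and removed none. The numbers 1 and 2 are not known to pair the libraries. The median log2 fold change of the members, 0.16, was 0.10 after quantile normalization and with equal FPKM sums, 0.08 after median-of-ratios scaling and after the GC correction with or without the replicate block, and 0.11 to 0.20 without 1 library. The median over all tested genes moved from 0.07 to 0.02, 0.02, -0.00 and 0.00 under the same settings in that order. MTA1 and MTA2 changed sign. MTA1 was -0.08 after quantile normalization, -0.09 after median-of-ratios scaling, -0.06 with equal sums, -0.09 with the length correction, with or without the block, and -0.07 with the GC correction, with or without the block. MTA2 was -0.08, -0.07, -0.04, -0.07 and -0.08 under the same settings. Leaving out 1 library gave -0.03 to 0.03 for MTA1 and -0.06 to 0.09 for MTA2. The cause of these changes was not tested. SIRT1 was lower in every fit, from -2.37 to -1.90. For CBX2, the member with the lowest mean in Control, the 95% confidence interval of the log2 fold change ran from 0.72 to 1.34. It ran from 0.28 to 0.84 for PCGF5 (2.33 FPKM in Control) and from -0.50 to 0.12 for HDAC9 (2.49 FPKM). These intervals come from the limma fit to the library values and not from the estimated depth.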
